A study of Mus musculus with 5 samples.

Results

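The contacts of the Sonic hedgehog gene Shh along the gene desert beside it were read from all 6 contact maps of the series. Shh lies on mouse chromosome 5 from 28,456,840 to 28,467,101, and its viewpoint was the 5 bins of 5 kb from 28,450,001 to 28,475,000, which are the bins of the gene and 1 bin on either side. The partners were all 140 bins of the desert from 28,490,001 to 29,190,000, of 558 bins in the captured region. Bins were chosen by position alone, and 137 of the 140 were kept. The bins at 28,605,001, 29,055,001 and 29,180,001 met fewer than 25% of the median count of partners in at least 1 map and were left out of every map.

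Shh encodes a secreted signal that patterns the limb bud, and in the limb its transcription depends on the ZRS, an enhancer inside the distant gene Lmbr1. A long stretch without protein-coding genes lies between them, and Shh, this desert and the ZRS share a topologically associating domain, within which DNA contacts are more frequent than across its borders. Such domains are shaped by cohesin, which extrudes loops, and by the DNA-binding protein CTCF, at which extrusion tends to halt.

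The tissue was the E10.5 mouse limb bud, and the method was capture Hi-C, which enriches ligated DNA pairs from a chosen region before sequencing. Each mutant genotype was homozygous and had 1 library. Tetraploid aggregation, where stem cells are combined with a host embryo, gave the intraTAD2-2xBorCTCF and the intraTAD2-1xBorCTCF embryos. The intraTAD2-i4CTCF, intraTAD3 and intraTAD2 embryos came from mating. The first 3 genotypes carry the intraTAD2 allele in their names and are called 2xBorCTCF, 1xBorCTCF and i4CTCF here. The sources used here do not say what each allele changes in the DNA. The map of wild type, for which no sample is listed, is given as the authors' value. In any ratio to wild type, genotype and library origin cannot be told apart, and in any ratio of a BorCTCF map to a map of mated embryos the same holds for genotype and embryo source. All 5 ratios to wild type share that 1 map, and 4 ratios share the intraTAD2 map. Whole contacts recovered from the maps numbered 1121373 (2xBorCTCF), 1975131 (1xBorCTCF), 1256568 (i4CTCF), 2848921 (intraTAD3), 2942790 (intraTAD2) and 1646616 (wild type). Of these, 6375 (i4CTCF) to 19403 (intraTAD2) joined Shh to the desert, over 685 bin pairs per map. Because each genotype had a single library, differences have no replicate check and no p-value is given. The 95% intervals cover counting error alone and say nothing of the spread among embryos. A map of whole limb buds does not tell a contact made in fewer cells from one made less often in each cell.

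Contacts become rarer with distance along any chromosome, so each value was set relative to the map's own average over bin pairs equally far apart. A contact of 1 is therefore the average at that distance in the captured region. Over the whole desert the contact of Shh was 1.57 in 2xBorCTCF, 1.40 in 1xBorCTCF, 1.46 in i4CTCF, 1.70 in intraTAD3, 1.63 in intraTAD2 and 1.49 in wild type. Averaged over the whole desert, contact was thus above 1 in all 6 maps, although it was below 1 in the 5 windows of 25 kb nearest to Shh in every map. The log2 ratio to wild type was 0.20 in intraTAD3 (interval 0.14 to 0.25) and 0.13 in intraTAD2 (0.079 to 0.19), and in i4CTCF it was -0.025 (-0.094 to 0.043). The ratios of 0.073 in 2xBorCTCF (0.0029 to 0.14) and -0.089 in 1xBorCTCF (-0.15 to -0.030) changed sign when contacts were used without balancing, to -0.027 in 2xBorCTCF and 0.038 in 1xBorCTCF, so no direction is given for them.

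Shh lies at the edge of its domain, and its contacts to the desert were set against those to the bins at the same distances on its other side, from 27,735,001 to 28,435,000. On that side, which holds Rbm33, Cnpy1 and En2, the contact of Shh was 0.796 in 2xBorCTCF, 0.870 in 1xBorCTCF, 0.828 in i4CTCF, 0.742 in intraTAD3, 0.699 in intraTAD2 and 0.816 in wild type. These levels lay below 1 in every map. The preference for the desert, as a log2 ratio within each map, was 0.98 in 2xBorCTCF, 0.68 in 1xBorCTCF, 0.82 in i4CTCF, 1.20 in intraTAD3, 1.22 in intraTAD2 and 0.87 in wild type. Its difference from wild type was 0.33 in intraTAD3 (0.24 to 0.43), 0.36 in intraTAD2 (0.26 to 0.45) and -0.18 in 1xBorCTCF (-0.28 to -0.085). For 2xBorCTCF (0.11, -0.0080 to 0.23) and i4CTCF (-0.046, -0.16 to 0.066) the interval included 0. It left out 0 in i4CTCF without balancing (-0.16) and with the bins of Shh only (-0.15), and in 2xBorCTCF with the average taken over pairs between Shh and Lmbr1 (0.17), so these 2 differences depend on the setting. The 3 maps named for CTCF changes all had a smaller preference than intraTAD2, by 0.25 in 2xBorCTCF (difference -0.25, -0.35 to -0.15), 0.54 in 1xBorCTCF (-0.54, -0.62 to -0.46) and 0.40 in i4CTCF (-0.40, -0.50 to -0.31).

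The profile was a gradient: of the 7 steps of 100 kb, the contact of Shh was lowest in the first in every map and highest in 1 of the last 2, toward Rnf32 and Lmbr1. In the first 100 kb step, from 28,490,001, it was 0.711 in 2xBorCTCF, 0.686 in 1xBorCTCF, 0.677 in i4CTCF, 0.673 in intraTAD3, 0.643 in intraTAD2 and 0.597 in wild type. In the last step, from 29,090,001, it was 2.35 in 2xBorCTCF, 2.18 in 1xBorCTCF, 2.39 in i4CTCF, 2.87 in intraTAD3, 2.97 in intraTAD2 and 2.36 in wild type. The desert next to Shh was thus met less often than the average at its distance in every map, and the far end was above 2 in every map. Over the 28 windows of 25 kb, the fitted gradient of the log2 contact per 100 kb was 0.27 in 2xBorCTCF, 0.26 in 1xBorCTCF, 0.31 in i4CTCF, 0.37 in intraTAD3, 0.37 in intraTAD2 and 0.34 in wild type. The gradient was shallower than in wild type in 2xBorCTCF (difference -0.070, -0.10 to -0.036) and in 1xBorCTCF (-0.079, -0.11 to -0.051). In i4CTCF the difference was -0.033 (-0.066 to -0.00068), and it was -0.0018 without balancing, within counting error. In intraTAD2 the gradient was steeper than in wild type by 0.030 (0.0042 to 0.057), and in intraTAD3 the difference was 0.026 (-0.00049 to 0.053). With the average over pairs between Shh and Lmbr1 the intraTAD2 difference was 0.012, within counting error. With the bins of Shh only as the viewpoint it was 0.031, also within counting error. Against intraTAD2, whose allele is part of the names of the 3 CTCF genotypes, the differences were -0.10 in 2xBorCTCF, -0.11 in 1xBorCTCF and -0.064 in i4CTCF, with intervals below 0. In intraTAD3 the difference from intraTAD2 was -0.0039 (-0.023 to 0.015). The size of the gradient depends on what the contacts were divided by. With the average taken over pairs between Shh and Lmbr1 in place of the whole region, it was 0.080 in 2xBorCTCF, 0.075 in 1xBorCTCF, 0.11 in i4CTCF, 0.14 in intraTAD3, 0.15 in intraTAD2 and 0.13 in wild type. The contact in the last step was then 1.13 in 2xBorCTCF, 1.07 in 1xBorCTCF, 1.08 in i4CTCF, 1.19 in intraTAD3, 1.25 in intraTAD2 and 1.08 in wild type, so the levels above 2 hold only against the average of the whole region.

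**Figure D1:**
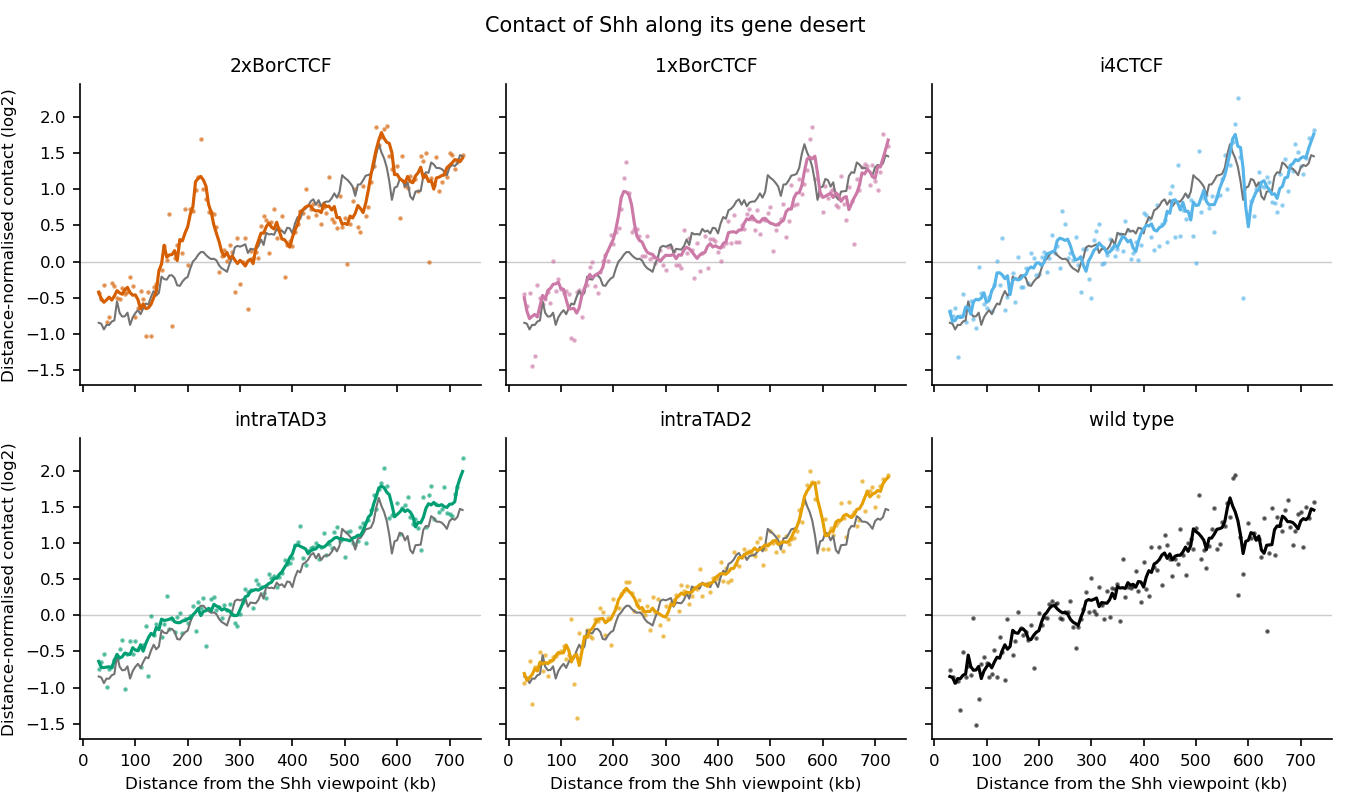
Distance-normalised contact of Shh with each 5 kb desert bin (points, log2 scale, bins with no contact not drawn) and its mean over 5 bins (coloured line), against the distance from the Shh viewpoint in kb, with 1 panel per map and the wild-type mean in grey. The line climbs along the desert in all 6 panels, and a hump at 225 kb stands out in 2xBorCTCF and 1xBorCTCF.

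Where the desert contacts of Shh lay was also read without any distance normalisation, from the same contacts as the gradient. The point with equal amounts of desert contact on its 2 sides was 260 kb from Shh in 2xBorCTCF, 266 kb in 1xBorCTCF, 291 kb in i4CTCF, 328 kb in intraTAD3, 326 kb in intraTAD2 and 330 kb in wild type. This point lay closer to Shh than in wild type in 3 maps, with a difference of -69.7 kb in 2xBorCTCF (-85.9 to -53.4), -64.4 kb in 1xBorCTCF (-78.4 to -50.4) and -38.9 kb in i4CTCF (-57.4 to -20.4). The differences of -2.3 kb in intraTAD3 (-16.1 to 11.6) and -3.9 kb in intraTAD2 (-17.3 to 9.6) were within counting error. The step from 28,590,001 to 28,690,000 took 17.7% of the desert contact in 2xBorCTCF and 17.1% in 1xBorCTCF, against 14.4% in i4CTCF, 13.6% in intraTAD3, 14.0% in intraTAD2 and 13.6% in wild type. Both BorCTCF shares lay above those of the other 4 maps by more than their intervals. The step from 28,890,001 to 28,990,000 took 9.79% in 2xBorCTCF, 10.2% in 1xBorCTCF and 11.2% in i4CTCF, against 12.1% in intraTAD3, 12.1% in intraTAD2 and 13.4% in wild type.

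**Figure D2:**
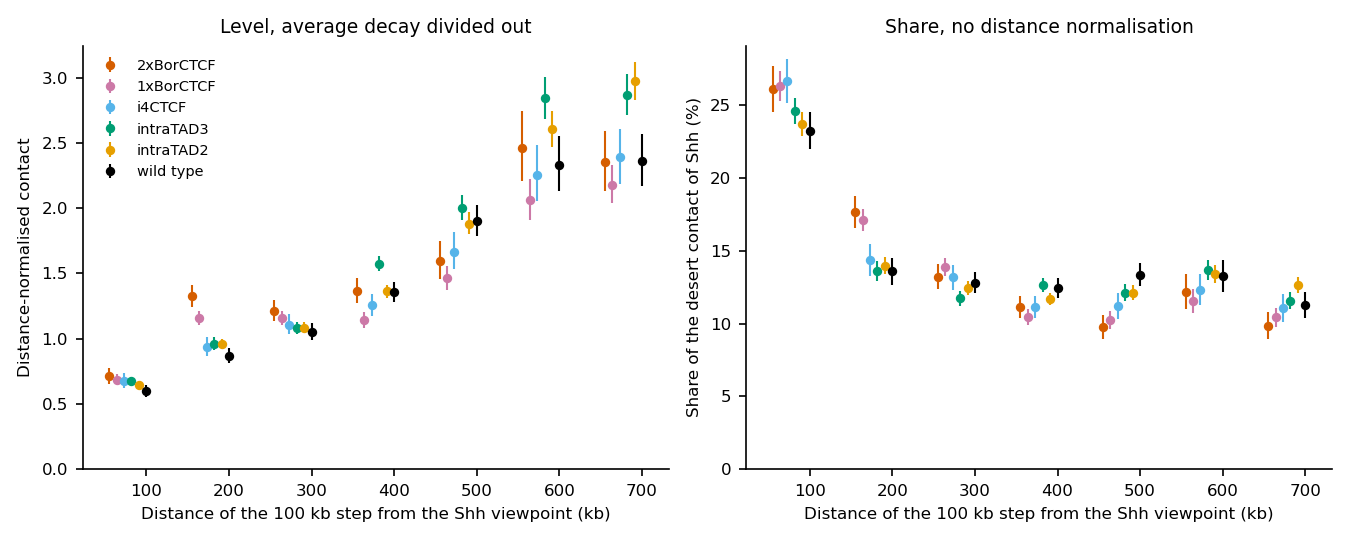
Distance-normalised contact of Shh (left) and the share of its desert contact in percent (right) in the 7 steps of 100 kb, against distance from Shh in kb. Points are the 6 maps, set side by side within a step, and bars are 95% counting intervals; in the step that starts at 28,590,001 the 2xBorCTCF and 1xBorCTCF points lie above the other 4 maps in both panels.

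On top of the gradient, the mean profile of the 6 maps, smoothed over 5 bins, had 2 peaks and 2 dips with a prominence of at least 0.3 on the log2 scale. Their positions were picked on these maps, so their heights are descriptions. The far peak lay at 29,030,001, 570 kb from Shh, and each map had a peak of its own within 15 kb of it. Over the 25 kb around it, the contact of Shh was 3.45 in 2xBorCTCF, 2.67 in 1xBorCTCF, 3.24 in i4CTCF, 3.45 in intraTAD3, 3.29 in intraTAD2 and 2.85 in wild type. The intervals of all pairs of maps overlapped, except that of 1xBorCTCF (2.35 to 3.03), which lay under that of intraTAD3 (3.14 to 3.79). The dip behind it at 29,060,001 was the weakest landmark, because its bins held only 0.371 to 0.417 of the contacts of an average bin and 48 (i4CTCF) to 204 (intraTAD2) contacts with Shh. The peak stood above this dip by a log2 ratio of 0.39 in intraTAD3 to 1.22 in i4CTCF. Peak and dip were picked as high and low points of the mean of these maps. This height was therefore partly fixed by the choice and tests nothing.

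The near peak lay at 28,685,001, 225 kb from Shh. This is the position named for the intraTAD2 site, a place known from earlier results of these maps. In 4 maps (2xBorCTCF, 1xBorCTCF, i4CTCF and intraTAD2) a peak of the map itself, with a prominence of at least 0.3, lay within 15 kb of it. In intraTAD3 and wild type no peak of that prominence lay there. Wild type did have a lower rise at this place. Its smoothed log2 contact was 0.13 at 230 kb, against -0.33 at 185 kb and -0.14 at 275 kb. Set against the dip at 28,750,001, where the contact was 0.912 to 1.15 in the 6 maps, the peak was higher by a log2 ratio of 1.16 in 2xBorCTCF (0.92 to 1.39), 0.96 in 1xBorCTCF (0.79 to 1.12), 0.27 in i4CTCF (0.0053 to 0.53) and 0.36 in intraTAD2 (0.22 to 0.51). In intraTAD3 (0.0013, -0.17 to 0.18) and wild type (-0.066, -0.29 to 0.15) peak and dip did not differ beyond counting error. The dip is that of the mean profile, 290 kb from Shh, and wild type was not low there. Its smoothed log2 contact was 0.20 at 290 kb and -0.14 at 275 kb, so this ratio does not show a flat wild-type profile. This comparison lies within each map and needs no scaling between libraries. Peak and dip were picked on the mean of these maps, so the intervals show counting error and test no peak.

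The desert holds 5 annotated genes, of which 0 code for protein: the lncRNAs Gm42243, Gm35688 and Gm35881 and the pseudogenes Gm10290 and Gm52839. The lncRNA 9530036O11Rik reaches in from the Shh side. Over Gm35688, which spans 28,890,378 to 29,004,724, the contact of Shh was 1.60 in 2xBorCTCF, 1.48 in 1xBorCTCF and 1.67 in i4CTCF, against 2.04 in intraTAD3, 1.91 in intraTAD2 and 1.96 in wild type. Over the short Gm35881 (29,008,447 to 29,010,527) it was 1.91 in 2xBorCTCF, 1.72 in 1xBorCTCF and 2.06 in i4CTCF, against 2.61 in intraTAD3, 2.17 in intraTAD2 and 2.21 in wild type. The order of these values was alike at both genes, with the 3 maps named for CTCF changes below the other 3. Part of it was within counting error. In the 25 kb window that holds Gm35881, the log2 ratio to intraTAD2 was -0.27 in 2xBorCTCF (-0.59 to 0.051) and -0.20 in i4CTCF (-0.47 to 0.076). In 1xBorCTCF it was -0.35 (-0.59 to -0.11). The promoters of these 2 genes are shown because both lie in windows of the desert where Shh contact was lower in 1xBorCTCF than in wild type. Each runs from 250 bases before to 50 bases after the start that the RefSeq table uses (GRCm38.p6, 5′ to 3′), which for Gm35688 lies inside the span given above, and capitals mark GATC, a motif that reads alike on both strands, the site of the DpnII enzyme at whose cuts contacts are recorded. The Gm35688 promoter is chr5:28903474-28903773 on the minus strand, and that of Gm35881 is chr5:29008197-29008496 on the plus strand.
Gm35688: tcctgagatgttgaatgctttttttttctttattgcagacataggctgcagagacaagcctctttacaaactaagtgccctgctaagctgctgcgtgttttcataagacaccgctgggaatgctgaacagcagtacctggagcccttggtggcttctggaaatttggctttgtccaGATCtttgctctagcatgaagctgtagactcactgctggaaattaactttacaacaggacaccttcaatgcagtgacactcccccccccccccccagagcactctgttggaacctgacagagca
Gm35881: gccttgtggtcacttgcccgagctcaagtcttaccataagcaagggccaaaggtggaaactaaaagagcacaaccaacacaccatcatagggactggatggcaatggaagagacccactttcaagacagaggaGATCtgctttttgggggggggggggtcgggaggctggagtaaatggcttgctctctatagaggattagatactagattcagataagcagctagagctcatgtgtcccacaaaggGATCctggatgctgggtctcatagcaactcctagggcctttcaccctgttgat
The Gm35688 promoter holds 1 GATC and the Gm35881 promoter 2, and 48.0% of 32851 mouse promoters of the same length in the same table hold at least 1. In the 5 kb bin of the Gm35688 promoter the contact of Shh was 1.74 in 2xBorCTCF, 1.21 in 1xBorCTCF, 1.49 in i4CTCF, 1.93 in intraTAD3, 1.60 in intraTAD2 and 2.15 in wild type. There 2xBorCTCF lay above intraTAD2, so the order of the whole genes did not hold in that bin.

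Single windows of 25 kb were called higher or lower where their log2 ratio was at least 0.3 in size and its interval left out 0. The same rule was applied to all 13398 pairs of 25 kb windows at these distances in the captured region, which gives the background. Against wild type, 6 of the 28 desert windows were higher (background 4.43%) and 2 lower (background 3.79%) in 2xBorCTCF, together 28.6% against a background of 8.22%. In 1xBorCTCF 4 were higher (background 4.47%) and 7 lower (background 3.54%), together 39.3% against 8.01%. In i4CTCF 1 was higher (background 3.11%) and 3 were lower (background 3.63%), together 14.3% against 6.75%. The 2 other maps had higher windows alone. In intraTAD3 6 were higher (background 2.96%) and 0 lower (background 4.28%), together 21.4% against 7.23%. In intraTAD2 5 were higher (background 2.72%) and 0 lower (background 3.33%), together 17.9% against 6.05%. The background pairs overlap each other and include the desert, so they describe these maps and are no test. The median background pair held 179 contacts in wild type and 343 in intraTAD2, fewer than most desert windows of these maps. More contacts make a call easier, so desert and background shares are compared at unlike depth. The median log2 ratio of the 28 windows was 0.060 in 2xBorCTCF, -0.055 in 1xBorCTCF, -0.034 in i4CTCF, 0.15 in intraTAD3 and 0.065 in intraTAD2, against background medians between -0.0013 and 0.013.

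The called windows fell into blocks along the desert. Near Shh, the window from 28,540,001 to 28,565,000 was called higher in all 5 mutant maps: its contact was 0.743 in 2xBorCTCF, 0.808 in 1xBorCTCF, 0.705 in i4CTCF, 0.688 in intraTAD3 and 0.679 in intraTAD2, against 0.545 in wild type. These 5 calls rest on the same 322 wild-type contacts. In the middle, the 3 windows from 28,640,001 to 28,715,000 were higher in 2xBorCTCF and 1xBorCTCF. Further out, the window from 28,940,001 to 28,965,000 was lower in 3 maps, at 1.53 in 2xBorCTCF, 1.52 in 1xBorCTCF and 1.49 in i4CTCF, against 1.95 in wild type. In intraTAD3 (2.08) and intraTAD2 (1.96) it was close to wild type. The next window, from 28,965,001, was lower in 2xBorCTCF (1.52) and 1xBorCTCF (1.43), against 2.05 in wild type. At the far end, the window from 29,165,001 was higher in intraTAD3 (3.44) and intraTAD2 (3.53), against 2.56 in wild type. The window from 29,040,001 was higher in 2xBorCTCF, intraTAD3 and intraTAD2, but it held only 50 contacts in 2xBorCTCF, 154 in intraTAD3 and 189 in intraTAD2, against 71 in wild type, and its bin at 29,040,001 held 2 wild-type contacts.

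**Figure D3:**
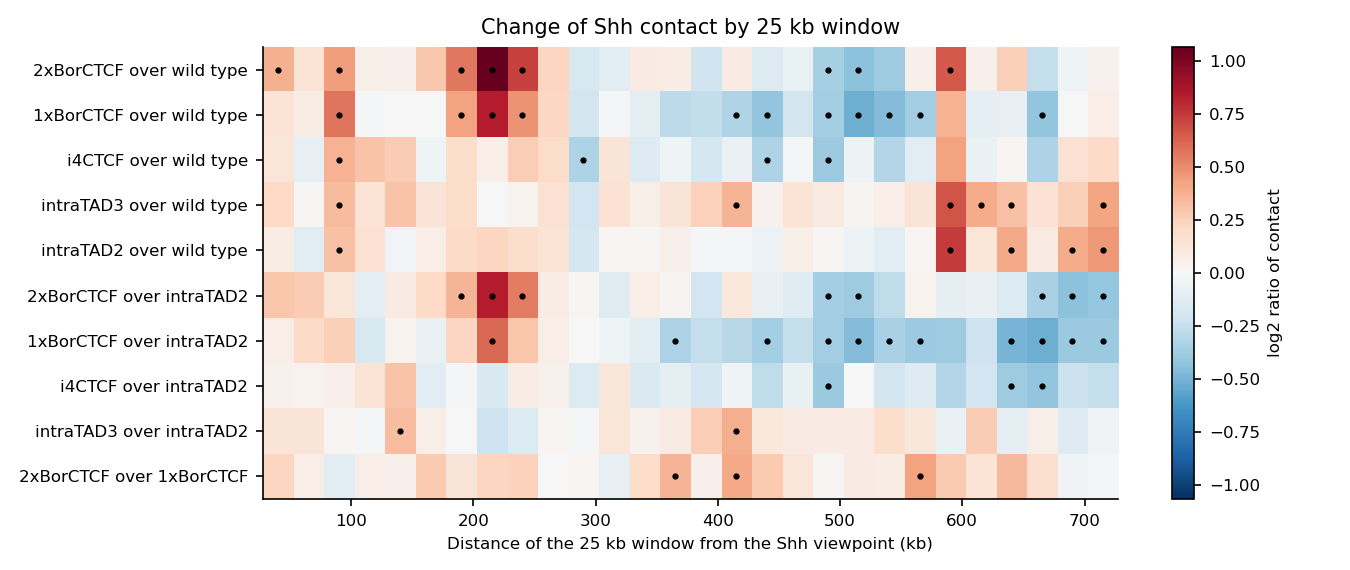
Log2 ratio of Shh contact (colour, red higher and blue lower in the map named first) for each 25 kb window, placed by its distance from Shh in kb, in 10 comparisons of 2 maps. Black dots mark called windows, which form a red block around 215 kb in the BorCTCF maps and a blue stretch beyond 350 kb that is longest in 1xBorCTCF over intraTAD2.

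At the 25 kb around the near peak, 28,675,001 to 28,700,000, the contact of Shh was 2.26 in 2xBorCTCF (2.08 to 2.46), 1.95 in 1xBorCTCF (1.84 to 2.07), 1.10 in i4CTCF (0.977 to 1.24), 0.998 in intraTAD3 (0.921 to 1.08), 1.30 in intraTAD2 (1.22 to 1.38) and 1.10 in wild type (0.991 to 1.21). The BorCTCF maps thus stood above the other 4 with no overlap of intervals, and intraTAD2 stood above intraTAD3 and wild type. This stretch was picked at a high point of the mean of these maps, a place known from their earlier results. The choice therefore favours maps that are high there. The intervals and ratios at this stretch describe these maps within counting error and are no test of a difference between genotypes. The log2 ratio to wild type was 1.05 in 2xBorCTCF (0.86 to 1.24), 0.83 in 1xBorCTCF (0.66 to 1.00) and 0.24 in intraTAD2 (0.071 to 0.41). For i4CTCF it was 0.0044 (-0.22 to 0.23) and for intraTAD3 -0.14 (-0.32 to 0.050). Against intraTAD2 the ratios were 0.81 in 2xBorCTCF (0.65 to 0.96), 0.59 in 1xBorCTCF (0.47 to 0.71), -0.24 in i4CTCF (-0.43 to -0.045) and -0.38 in intraTAD3 (-0.52 to -0.23).

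The rise was centred on the bin from 28,685,001, with 3.25 in 2xBorCTCF, 2.61 in 1xBorCTCF, 1.29 in i4CTCF, 1.07 in intraTAD3, 1.37 in intraTAD2 and 1.15 in wild type. Neighbouring bins whose intervals stayed above wild type without a gap ran over 50 kb in 2xBorCTCF (28,665,001 to 28,715,000) and over 20 kb in 1xBorCTCF (28,675,001 to 28,695,000). The 2xBorCTCF map has fewer contacts and hence wider intervals, and its run was still the longer. Within the viewpoint, the contact with the site in 2xBorCTCF was 2.68 at the bin from 28,450,001 and 2.88 at that from 28,455,001, and 2.05, 1.86 and 1.84 at the next 3 bins toward the desert. In 1xBorCTCF these 5 bins gave 2.24, 2.09, 1.86, 1.91 and 1.66. In wild type they gave 1.14, 1.07, 1.28, 1.06 and 0.934, so both BorCTCF maps were above wild type at all 5 bins and highest at the 2 bins facing Rbm33. Intervals within a map overlapped in part. In 2xBorCTCF they were 2.28 to 3.16 at the first bin and 1.67 to 2.52 at the middle bin. In 1xBorCTCF they were 1.82 to 2.41 at the bin from 28,455,001 and 1.71 to 2.14 at that from 28,465,001. The neighbours of Shh met the site more often as well. A 25 kb viewpoint next to it on the Rbm33 side met the site at 1.68 in 2xBorCTCF, 1.53 in 1xBorCTCF, 1.39 in i4CTCF and 1.01 in intraTAD3, against 0.926 in intraTAD2 and 1.01 in wild type. There i4CTCF, too, was above intraTAD2 (log2 ratio 0.59, 0.19 to 0.98), and its interval (1.10 to 1.75) overlapped those of both BorCTCF maps. The 25 kb on the desert side met the site at 1.48 in 2xBorCTCF, 1.58 in 1xBorCTCF, 1.29 in i4CTCF and 1.18 in intraTAD3, against 1.20 in intraTAD2 and 1.16 in wild type.

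**Figure D4:**
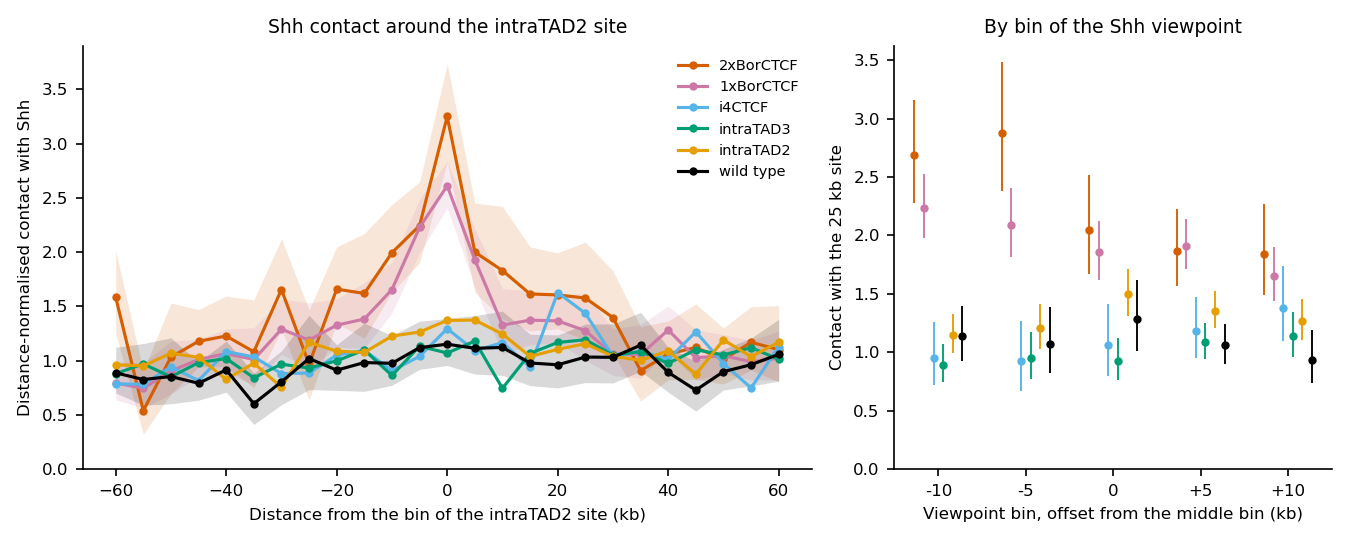
Left, distance-normalised contact of Shh with each 5 kb bin within 60 kb of the intraTAD2 site (x axis in kb from its bin, shading for 95% counting intervals in 2xBorCTCF, 1xBorCTCF and wild type). Right, contact of each 5 kb bin of the Shh viewpoint with the 25 kb site, in the 6 maps with 95% counting intervals. On the left 2xBorCTCF and 1xBorCTCF peak at 0 kb, and on the right they lie above the other maps at every viewpoint bin.

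The total contacts of this bin differed between maps. They were, relative to an average bin of the same map, 2.08 in 2xBorCTCF, 3.38 in 1xBorCTCF, 2.43 in i4CTCF, 1.90 in intraTAD3, 3.79 in intraTAD2 and 2.01 in wild type. Balancing divides this excess away, so the balanced contact is what Shh takes of the bin's contacts and not their number. Without balancing, the log2 ratio at the 25 kb site to wild type was 1.01 in 2xBorCTCF, 1.35 in 1xBorCTCF and 0.54 in intraTAD2. For 2xBorCTCF over 1xBorCTCF the sign turned: the ratio was 0.22 with balancing (0.066 to 0.36) and -0.34 without it (-0.48 to -0.21), so which of them met the site more often depends on the balancing. Over the 25 kb, both stood above intraTAD2 either way, at 0.47 in 2xBorCTCF and 0.81 in 1xBorCTCF without balancing. At the centre bin alone, the ratio to intraTAD2 without balancing was 0.19 in 2xBorCTCF (-0.035 to 0.42), within counting error, and 0.84 in 1xBorCTCF (0.67 to 1.01). With balancing the 2xBorCTCF ratio at that bin was 1.25.

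Beyond the site, from 28,700,001 to 29,190,000, the contact of Shh was 1.78 in 2xBorCTCF, 1.59 in 1xBorCTCF, 1.74 in i4CTCF, 2.08 in intraTAD3, 1.98 in intraTAD2 and 1.80 in wild type. Against intraTAD2 it was lower in 1xBorCTCF (log2 ratio -0.32, -0.37 to -0.26), i4CTCF (-0.19, -0.26 to -0.12) and 2xBorCTCF (-0.15, -0.22 to -0.077), and slightly higher in intraTAD3 (0.074, 0.025 to 0.12). Against wild type the 1xBorCTCF value was lower (-0.18, -0.25 to -0.11), while i4CTCF (-0.055, -0.13 to 0.024) and 2xBorCTCF (-0.016, -0.099 to 0.068) were within counting error. With the average taken between Shh and Lmbr1 alone, the ratio to intraTAD2 was -0.14 in 1xBorCTCF and -0.012 in 2xBorCTCF, so the 2xBorCTCF value was no longer beyond counting error. On the Shh side of the site, from 28,490,001 to 28,675,000, the contact was 0.887 in 2xBorCTCF and 0.814 in 1xBorCTCF, against 0.756 in intraTAD2 and 0.701 in wild type. The ratio to intraTAD2 there was 0.23 in 2xBorCTCF (0.13 to 0.33) and 0.11 in 1xBorCTCF (0.030 to 0.18). Averaged over each stretch with balancing, then, Shh met the desert up to and at the site more in both BorCTCF maps than in intraTAD2. In 1xBorCTCF it met the desert behind the site less with either average. Of the 7 windows up to 28,665,000, 1 was called higher in 2xBorCTCF (background 4.25%) and 0 in 1xBorCTCF (background 5.56%). Without balancing, contact in the first 100 kb step was 0.646 in 2xBorCTCF, 0.747 in 1xBorCTCF and 0.639 in intraTAD2.

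**Figure D5:**
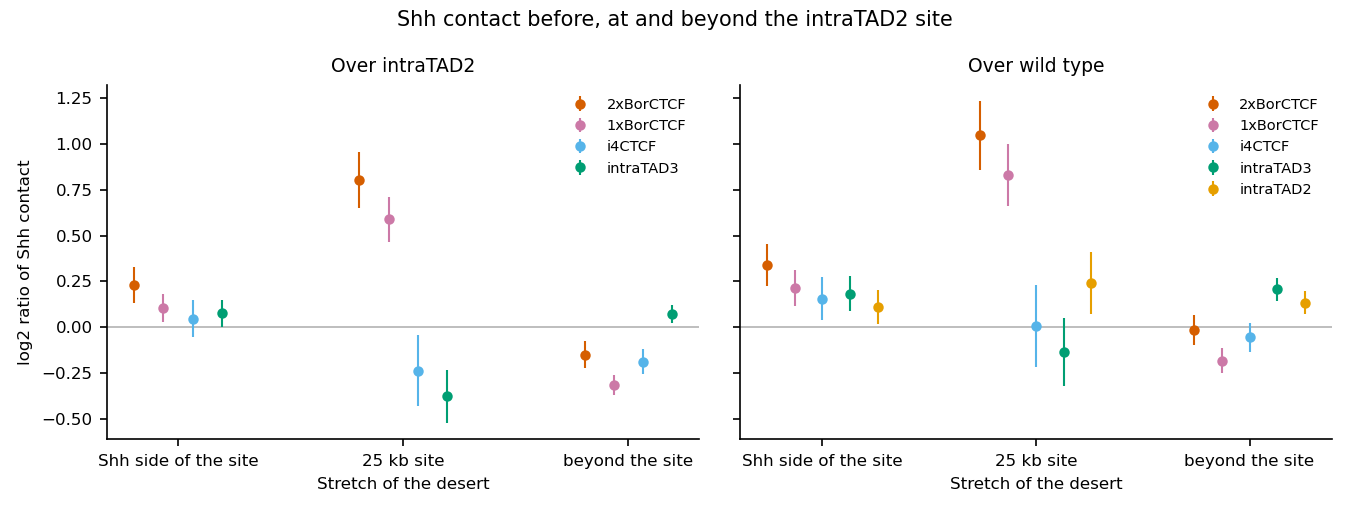
Log2 ratio of Shh contact with the desert on the Shh side of the intraTAD2 site, at the 25 kb site and beyond it, over intraTAD2 (left) and over wild type (right), with 95% counting intervals. In both panels 2xBorCTCF and 1xBorCTCF lie highest at the site, and 1xBorCTCF lies below 0 beyond it.

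Counted by window against intraTAD2, 3 of 28 windows were higher (background 4.25%) and 5 lower (background 3.48%) in 2xBorCTCF, together 28.6% against a background of 7.73%. In 1xBorCTCF 1 was higher (background 5.56%) and 10 lower (background 3.94%), together 39.3% against 9.50%. In i4CTCF 0 were higher (background 3.23%) and 3 lower (background 3.37%), together 10.7% against 6.60%. In intraTAD3 2 were higher (background 1.71%) and 0 lower (background 2.43%), together 7.14% against 4.14%. The higher windows of the BorCTCF maps lay at or beside the site, and all of their lower windows lay beyond it. Of the 19 windows from 28,715,001 on, 1xBorCTCF lay below intraTAD2 in 18, i4CTCF in 16 and 2xBorCTCF in 13, by sign alone. Called lower among these were 10 in 1xBorCTCF, 3 in i4CTCF and 5 in 2xBorCTCF. The share of background pairs below intraTAD2 by sign is not given. The median background log2 ratio to intraTAD2 was 0.014 in 1xBorCTCF, -0.0017 in i4CTCF and 0.0071 in 2xBorCTCF. In 1xBorCTCF the called ones ran in near succession from 28,890,001 to 29,040,000 and again from 29,090,001 to 29,190,000, with log2 ratios of -0.33 to -0.52 including the window from 28,815,001. With the average taken between Shh and Lmbr1, only 3 windows were called in 1xBorCTCF, in place of 11, and 3 in 2xBorCTCF, in place of 8. Most of these calls thus hold only against the average of the whole region. No background share is given for that other average. The window from 28,940,001 was lower than in intraTAD2 in all 3 maps named for CTCF changes, at -0.36 in 2xBorCTCF, -0.37 in 1xBorCTCF and -0.40 in i4CTCF.

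Between the BorCTCF maps, 3 of 28 windows were higher (background 2.30%) and 0 lower (background 3.22%) in 2xBorCTCF than in 1xBorCTCF, together 10.7% against 5.52%. The window from 28,815,001 had a contact of 1.37 in 2xBorCTCF and 1.07 in 1xBorCTCF. That from 28,865,001 had 1.60 in 2xBorCTCF and 1.21 in 1xBorCTCF, and that from 29,015,001 had 3.21 in 2xBorCTCF and 2.38 in 1xBorCTCF. Beyond the site the balanced ratio was 0.17 (0.088 to 0.25), and it was -0.036 (-0.096 to 0.025) without balancing. The gradients differed by 0.0097 (-0.021 to 0.040) and the midpoints of the desert contact by -5.3 kb (-19.4 to 8.9).

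At the place named for the intraTAD3 site, 28,865,001 to 28,890,000, the contact of Shh was 1.60 in 2xBorCTCF, 1.21 in 1xBorCTCF, 1.44 in i4CTCF, 1.94 in intraTAD3, 1.48 in intraTAD2 and 1.51 in wild type. The intraTAD3 value was the highest, with a log2 ratio of 0.36 to wild type (0.15 to 0.57) and 0.39 to intraTAD2 (0.23 to 0.54). A run of 2 bins from 28,870,001 to 28,880,000 was above intraTAD2 beyond counting error. Over wild type, the balanced ratio at the bin from 28,875,001 was 0.30 (-0.17 to 0.76), within counting error. The 25 kb viewpoint on the desert side of Shh also met this place more in intraTAD3 than in wild type (0.24, 0.049 to 0.44). Over intraTAD2 that ratio was 0.14 (-0.020 to 0.30). The bin from 28,875,001 took 4.15 times the contacts of an average bin in intraTAD3, and 0.743 (wild type) to 1.21 (1xBorCTCF) times in the other 5 maps. Without balancing, the ratio at the 25 kb was 0.91 to wild type and 0.78 to intraTAD2. At the bin from 28,875,001 alone it was then 2.52 to wild type (2.09 to 2.96) and 2.33 to intraTAD2 (2.02 to 2.65). Whether intraTAD3 stood above wild type at that bin thus depends on the balancing. Beyond this place, from 28,890,001, the contact in intraTAD3 was 2.56, against 2.48 in intraTAD2 (0.049, -0.013 to 0.11) and 2.19 in wild type (0.22, 0.14 to 0.31).

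As whole profiles over 28 windows, any 2 maps were alike, with a Pearson r of the log2 contact between 0.88 (2xBorCTCF with wild type) and 0.98 (i4CTCF with intraTAD2). After a straight line had been taken out of each profile, r was highest between 2xBorCTCF and 1xBorCTCF, at 0.90, and lowest between 1xBorCTCF and wild type, at 0.25. The windows share neighbours, base composition and capture probes, so these are descriptions. Of 46 genes of the captured region outside the desert, those whose own contact with the 28 windows followed that of Shh most closely were Rbm33, Cnpy1 and Gm35602, with a median Spearman rho over the 6 maps of 0.94, 0.93 and 0.90. All 3 lie on the other side of Shh from the desert and so meet the windows in the same order of distance. At the far end, Lmbr1 had the opposite order, with a rho of -0.95.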

How the data were processed

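Capture Hi-C libraries were made with DpnII digestion and SureSelect probes, per the labels' protocols. The deposited values are a contact signal of 5 kb bin pairs. The authors balanced it by the Knight-Ruiz (KR) method, so that all bins have equal totals, after a mapping quality filter of 30, both per the file names. Per the submitters' processing notes, the tool Bowtie2 2.2.6 and the builds mm10 and mm9 were used, with no role stated. The sources used here say nothing of duplicate removal or probe positions. Coordinates were taken as mm10: when the places of Shh and Lmbr1 were shifted by up to 600 kb in 241 steps, their contact was highest within 1 bin of no shift (6.36 at -5 kb, 5.80 at 0 kb) and at most 1.57 beyond 100 kb. Of the columns of values, 1 (wild type) belongs to no sample.

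Whole contacts were recovered from the balanced values, 100% of them whole within 0.01 contacts, apart from 6 bin pairs of intraTAD3. In all maps 10 bins were left out, those that met fewer than 25% of the median count of partners in at least 1 map. Distance normalisation divided each value by the average of the kept pairs at that distance, zeros included. Intervals are 95% weighted Poisson intervals of the recovered contacts. The interval of the point that splits the desert contact into equal parts was propagated from the same error, in place of the planned redraws. The recovery of contacts and the intervals were tested on simulated data. Windows were called at a log2 ratio of 0.3 or more whose interval left out 0, in 10 comparisons (280 intervals).

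Named positions were the shared peaks and dips, the 100 kb steps, called windows and the places of the intraTAD2 and intraTAD3 sites. The 3 genes most like Shh were those with the highest median Spearman correlation of their own profile. The members, sites and lists were chosen with earlier results of these data known. Python 3.11.15, NumPy 2.4.6, SciPy 1.17.1 and Matplotlib 3.10.9 were used.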

Additional observations from a re-analysis of the deposited data

How the results depend on the processing

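The results were recomputed with a viewpoint of the bins of Shh only, contacts without balancing, bins left out per map, an average over pairs between Shh and Lmbr1 only, the median of the other 5 maps in place of wild type, windows of 50 kb, a size of 0.5 and a prominence of 0.5. The recomputations for the 2 sites and for the desert beyond the intraTAD2 site were chosen after seeing the data. No paired analysis was possible because each genotype had 1 library, and no replicate could be left out. Depth limits the far windows of 2xBorCTCF and i4CTCF most. Ratios are log2. The 50 kb windows are fewer by construction; for the other changes below the cause was not tested.

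Without balancing, the mean desert contact over wild type changed sign in 2xBorCTCF (-0.027) and 1xBorCTCF (0.038) and was 0.13 in intraTAD3. The intraTAD3 gradient was then 0.054 steeper than in wild type, and its midpoint lay 12.4 kb further out. Over wild type, contact with the intraTAD2 site was 1.35 in 1xBorCTCF and 0.54 in intraTAD2, and contact with the intraTAD3 site was 0.91 in intraTAD3. Over intraTAD2, contact with the intraTAD2 site was 0.47 in 2xBorCTCF, 0.81 in 1xBorCTCF, -0.47 in i4CTCF and -0.76 in intraTAD3, and contact with the intraTAD3 site was 0.78 in intraTAD3. In 2xBorCTCF over 1xBorCTCF the sign changed at the site (-0.34) and beyond it (-0.036). Beyond the site the ratio to wild type was -0.13 in 2xBorCTCF and -0.095 in 1xBorCTCF, and the ratio to intraTAD2 was -0.26 in 2xBorCTCF and -0.22 in 1xBorCTCF. The windows changed numbered 2 in i4CTCF over wild type and 5 in i4CTCF over intraTAD2.

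With the average over pairs between Shh and Lmbr1, the mean desert contact over wild type was 0.011 in 1xBorCTCF (sign changed), 0.100 in intraTAD3 and 0.059 in intraTAD2. Beyond the site the ratio to wild type was -0.095 in 1xBorCTCF, 0.10 in intraTAD3 and 0.042 in intraTAD2, and the ratio to intraTAD2 was -0.012 in 2xBorCTCF and -0.14 in 1xBorCTCF. The windows changed then numbered 3 in intraTAD3 over wild type. Over intraTAD2 they numbered 3 in 2xBorCTCF, 3 in 1xBorCTCF and 1 in intraTAD3.

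Against the median of the other 5 maps, the mean desert contact was -0.16 in 1xBorCTCF and -0.099 in i4CTCF. The gradient was 0.060 steeper in intraTAD3 and 0.064 steeper in intraTAD2, and contact with the intraTAD2 site was -0.24 in i4CTCF and -0.38 in intraTAD3. The windows changed numbered 4 in 2xBorCTCF and 1 in i4CTCF. With the bins of Shh only, they numbered 1 in intraTAD3 over intraTAD2 and 8 in 2xBorCTCF over 1xBorCTCF. With 50 kb windows (14 in place of 28) they numbered, over wild type, 3 in 2xBorCTCF, 5 in 1xBorCTCF, 1 in i4CTCF, 3 in intraTAD3 and 2 in intraTAD2. Over intraTAD2 they numbered 4 in 2xBorCTCF, 7 in 1xBorCTCF, 1 in i4CTCF and 1 in intraTAD3, and 0 in 2xBorCTCF over 1xBorCTCF. At a size of 0.5 they numbered, over wild type, 4 in 2xBorCTCF, 3 in 1xBorCTCF, 0 in i4CTCF, 1 in intraTAD3 and 1 in intraTAD2. Over intraTAD2 they numbered 2 in 2xBorCTCF, 2 in 1xBorCTCF, 0 in i4CTCF and 0 in intraTAD3, and 0 in 2xBorCTCF over 1xBorCTCF. With a prominence of 0.5, 2 of the 4 peaks and dips were left.

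The gradient was shallower than in wild type beyond counting error in 2xBorCTCF and 1xBorCTCF under each of the settings run for it. In i4CTCF the interval included 0 without balancing (-0.0018), with the average over pairs between Shh and Lmbr1 (-0.027) and with bins left out per map (-0.031).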
